A study of Mus musculus with 4 samples.

Results

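The mRNAs described here encode tubulins, the proteins that fold, nucleate and bind tubulin, the neurofilament subunits and the ankyrins. They were chosen by the gene name printed for each probe of a mouse expression array (names of the alpha, beta and gamma tubulins and the gamma-tubulin complex, Tbca to Tbce, Nefh, Nefl, Nefm, Ina, classical microtubule-associated proteins, Stmn1 to Stmn4, Mapre1 to Mapre3, Dcx, Dclk1 to Dclk3 and Ank1 to Ank3). In all, 57 of 34964 names on the array met the choice, and they were read by 91 of 55681 probes. The RNA was brought down from cortex and hippocampus lysate of male C57BL/6 mice aged 8 weeks, a common inbred strain, with beads carrying an antibody against CPEB3 (2 arrays) or a control antibody (2 arrays). No genetic change or drug is given in the labels for either group, and the incubation with the beads lasted 3 h in both. CPEB3 binds mRNAs in neurons and controls how much protein is made from them, and the question was which mRNAs came down with its antibody more, or less, than with the control antibody. No label tells separate animals from repeated precipitations of one lysate, so a p-value here reflects only the spread between these arrays, which may be technical.

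Microtubules are hollow polymers of alpha and beta tubulin dimers, which cofactors fold and which gamma-tubulin ring complexes nucleate. In neurons they are stabilised and spaced by microtubule-associated proteins, MAP2 chiefly in dendrites and tau chiefly in axons, and taken apart with the help of stathmins. Neurofilaments are the intermediate filaments that fill large axons, and ankyrins tie membrane proteins to the spectrin skeleton, ankyrin-G at the axon initial segment.

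Signals are given relative to their own array, as multiples of its 75th percentile, and differences as log2 of CPEB3 IgG over control IgG. Between 68.05% and 70.04% of probes were well above background with CPEB3 IgG and between 73.23% and 73.45% with control IgG, and the number of arrays limits the precision. All 4 arrays read the 6 neuronal markers examined well above background, and 1 of them, Rbfox3, was higher with CPEB3 IgG (0.70 ± 0.15, SE). Of 5 astrocyte markers 2 were higher and 1 lower, from −3.03 for Aldh1l1 to 3.16 for Slc1a3. Among 5 oligodendrocyte markers Cnp alone was called (−1.80), among 4 of microglia Aif1 alone (−2.34), among 3 of endothelium none, and of the 2 blood markers tested Hba-a1 was lower (−1.01). Over all genes tested 19.2% were called higher and 20.2% lower, so a call in either direction is common on these arrays. Every tested marker was well above background on all 4 arrays, and the part of these cells in the results was not tested. Lysate of cortex and hippocampus mixes cell types, so the cell type a precipitated RNA came from cannot be told here. Both CPEB3 IgG arrays lay in one row of the slide and both control arrays in the other, so the row on the slide cannot be told apart from the antibody.

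The array reads each mRNA through probes of 60 bases, and the stretches below show what was measured for the mRNAs the results turn on. They are 30 bases of each probe, from the deposited files, written 5′ to 3′ on the transcript strand with the mm9 interval of the 30 bases. All 63 member probes whose gene has a strand in the RefSeq promoter table (GRCm38.p6) lay on the strand of the gene. Capitals mark TTTTAT or TTTTAAT, the DNA letters of the classic cytoplasmic polyadenylation element after which the CPEB family is named. Whether a probe lies in coding or untranslated sequence was not analysed here. The first 3 are the ankyrin-G probes, which ran in opposite directions, and the next 2 are the tau probes that differed most.
Ank3 at transcript position 1263, chr10:69312871-69312900, plus strand: acacgttgcctcgaagcgaggaaatgcaaa
Ank3 at transcript position 6169, chr10:69467590-69467619, plus strand: tctctggaagaaaccagcaagcttgtcata
Ank3 at transcript position 9365, chr10:69489540-69489569, plus strand: atggggttatgttacatgcctggaaatgtg
Mapt at transcript position 1472, chr11:104189511-104189540, plus strand: cagggcagtcaataatcatggagagaagag
Mapt at transcript position 5217, chr11:104193256-104193285, plus strand: attttgagggtggggggagggacacaaatc
The next 7 each stand for a class whose values follow, and among them Map2 is shown at its only probe called higher.
Tuba4a at transcript position 1235, chr1:75212322-75212351, minus strand: tgtatgccaagagggcttttgtacactggt
Tubb4a at transcript position 1202, chr17:57220470-57220499, minus strand: ttccggggacggatgtccatgaaggaggta
Tubgcp3 at transcript position 3426, chr8:12614455-12614484, minus strand: tgttaggaagaaatcagcttggattgtgaa
Nefm at transcript position 2582, chr14:68738208-68738237, minus strand: accaaatacatcaccaaatctgtaaccgtc
Stmn3 at transcript position 844, chr2:181041411-181041440, minus strand: cgttttcgggttttgtttttgttttcaatt
Map2 at transcript position 5145, chr1:66488798-66488827, plus strand: tgtttttacacctagaagttttagcctgga
Dclk2 at transcript position 4031, chr3:86590104-86590133, minus strand: tagattttgccttttccaggtatccccaac
The last 3 are the tested member probes that held the element.
Tbca at transcript position 394, chr13:95612776-95612805, plus strand: gaaaacgtggttctTTTTATgcagttgcat
Mapre3 at transcript position 1799, chr5:31168394-31168423, plus strand: atatctgttcagTTTTATttaaataaattt
Map1b at transcript position 8802, chr13:100194427-100194456, minus strand: ttgcattggctaTTTTAATtttccattaat

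Of the 57 genes, 55 could be tested, while the other 2, Tubal3 among them, were not well above background on any array. With CPEB3 IgG 33 of the 55 were lower and 3 were higher (limma, adjusted p under 0.05), and 19 were not called. Over all 27687 genes tested, 20.2% were called lower and 19.2% higher, or 39.4% in either direction, and over the 16991 genes matched to a RefSeq transcript 19.9% were lower and 25.6% higher. These shares are also the background for each class below, where the counts rest on 3 to 9 tested genes. The median difference of the 55 genes was −0.98, and that of all genes −0.14. Of the called members, 28 differed by at least 2-fold. The median fold of all called genes on the array was 2.33, and 2.37 among those matched to RefSeq, so such a size is common among called genes. Both CPEB3 IgG arrays lay below both control arrays for 35 members and above them for 13, against 41.3% and 31.6% of all genes. In a called gene such a lack of overlap largely follows from the call and is no further evidence. A gene is represented by its brightest probe in one fit over genes, and every other probe is quoted from a second fit over all 40616 tested probes, in which 45 of 88 member probes were lower (background 18.9%) and 4 were higher (background 15.8%).

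**Figure D1:**
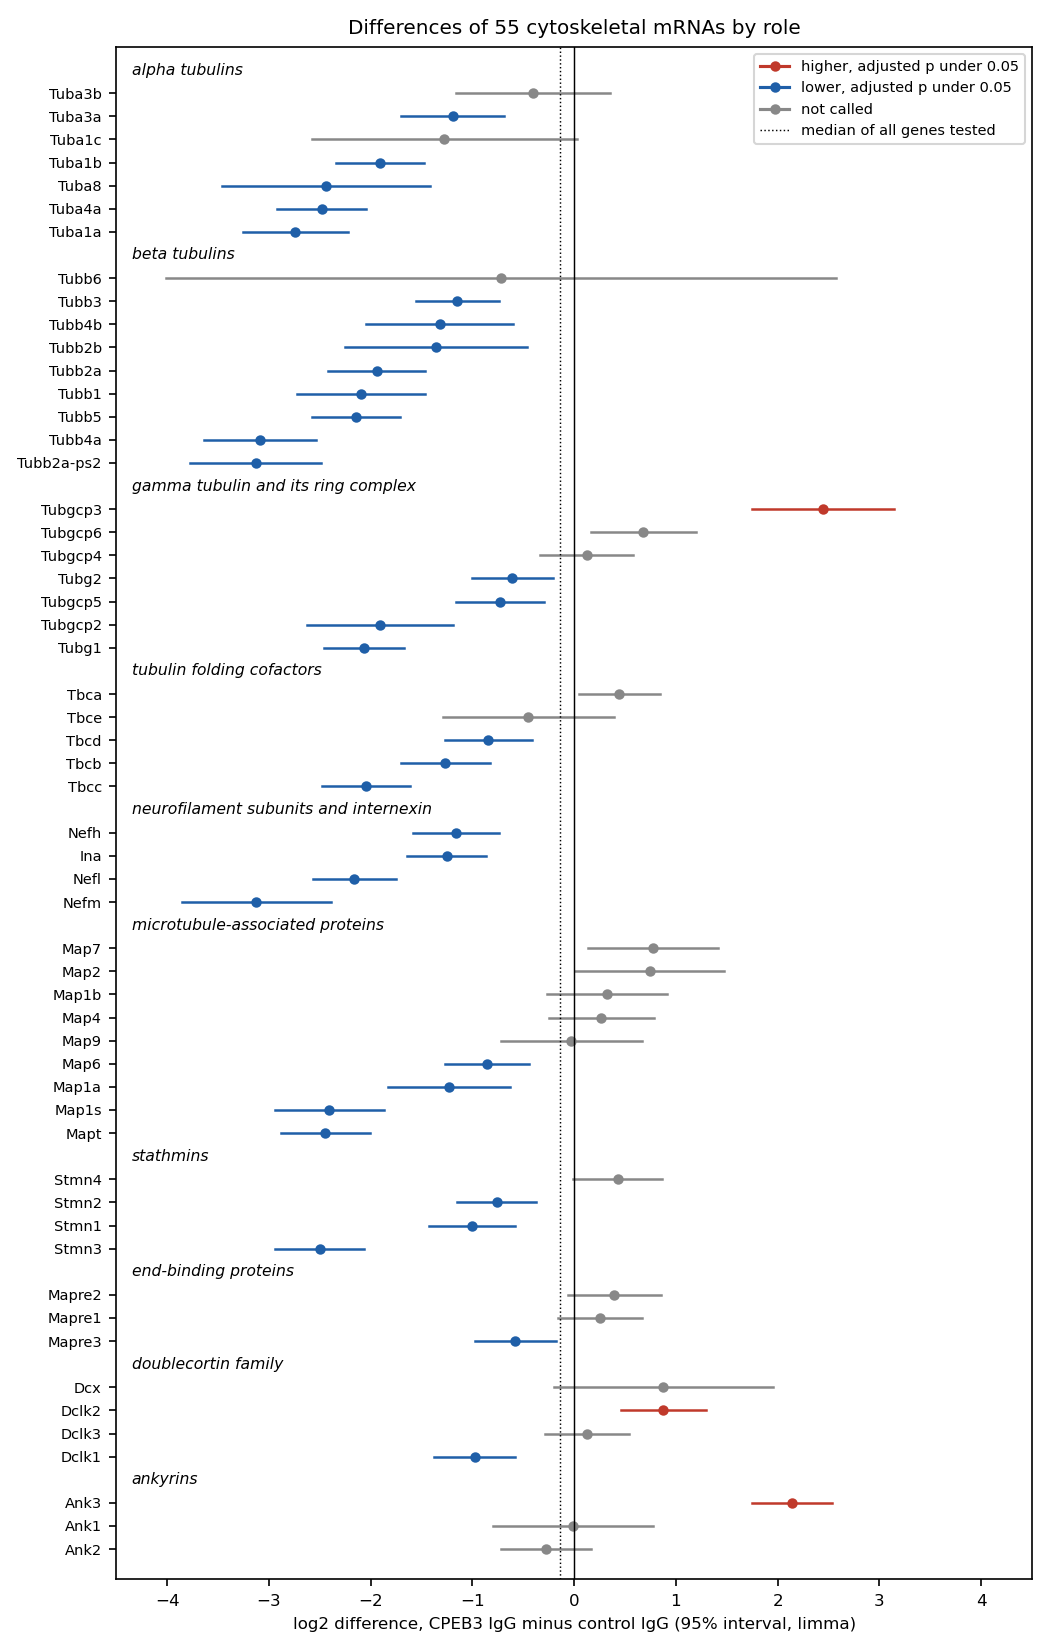
Log2 difference of CPEB3 IgG minus control IgG for the 55 tested genes, grouped by role, with 95% intervals from limma (2 arrays per antibody); the dotted line is the median of all genes tested, −0.14. The neurofilament subunits lie left of 0 with all 6 other settings of background and scaling too, while the alpha and beta tubulins run from −3.13 to −0.41 and Tuba3b crosses 0 with spike-in scaling; Tubgcp3 (2.44), Ank3 (2.14) and Dclk2 (0.88) are the genes called higher.

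Alpha tubulin mRNAs were less abundant in the CPEB3 precipitate, with 5 of 7 lower, 0 higher and a median difference of −1.91. Tuba1a, the alpha tubulin of young and differentiating neurons, had signals of 39.3 and 31.8 with CPEB3 IgG and of 254.8 and 219.7 with control IgG, a 6.69-fold fall (95% interval 4.67 to 9.56, adjusted p = 0.00386). A probe on chromosome 12 that also carries the name Tuba1a, whose main probe lies on chromosome 15, gave −2.59 (adjusted p = 0.00527), and which transcripts it reads was not tested. The widely expressed Tuba1b had 119.4 and 104.8 with CPEB3 IgG, against 430.6 and 408.7 with control IgG (−1.91 ± 0.16, SE), and at a probe 396 nt nearer the 5′ end the difference was −2.83. The groups were well apart for both genes.

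Tuba4a, an alpha tubulin that lacks the usual genetically encoded C-terminal tyrosine, had 28.2 and 31.6 with CPEB3 IgG against 157.9 and 175.2 with control IgG (−2.48 ± 0.16, SE). Tuba8 had 1.46 and 0.87 with CPEB3 IgG against 7.87 and 4.78 with control IgG (−2.44 ± 0.38, SE). Tuba3a, known mainly from testis, had 32.7 and 25.7 with CPEB3 IgG against 66.8 and 66.0 with control IgG (−1.20 ± 0.19, SE). In each of the 3 genes both CPEB3 IgG arrays were the low ones. The Tuba3a probes share runs of 28 bases with the Tuba3b probe, so these 2 genes may be read together in part, and Tuba3b itself was not called (−0.41 ± 0.28, SE). Tuba1c was not called either, at 0.775 and 0.499 with CPEB3 IgG against 2.29 and 0.990 with control IgG (−1.28 ± 0.48, SE). Its call was made without control IgG replicate 2 (−1.88, adjusted p = 0.0188). The calls of Tuba3a (−1.02) and Tuba8 (−2.07) were lost without CPEB3 IgG replicate 2.

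Beta tubulin mRNAs were less abundant too, with 8 of 9 lower, 0 higher and a median of −1.94. Tubb4a, a beta tubulin enriched in brain and in oligodendrocytes, had 1.80 and 1.89 with CPEB3 IgG against 13.6 and 18.1 with control IgG, an 8.51-fold fall (95% interval 5.82 to 12.4, adjusted p = 0.00386). Tubb5, a widely expressed beta tubulin, had 31.9 and 28.4 with CPEB3 IgG, against 128.3 and 138.7 with control IgG (−2.15 ± 0.16, SE). Tubb2a had 66.2 and 54.3 with CPEB3 IgG against 221.5 and 238.6 with control IgG (−1.94 ± 0.18, SE). The pseudogene entry Tubb2a-ps2 had 0.975 and 0.779 with CPEB3 IgG against 6.50 and 8.94 with control IgG (−3.13 ± 0.24, SE), and whether its probe also reads the Tubb2a mRNA was not tested. The 4 entries showed no overlap between the antibodies.

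Tubb3, the beta tubulin used as a marker of neurons, was among the lower genes, with 21.7 and 20.5 with CPEB3 IgG against 48.1 and 45.4 with control IgG (−1.15 ± 0.15, SE). Tubb4b had 89.1 and 66.8 with CPEB3 IgG against 231.4 and 160.8 with control IgG (−1.32 ± 0.27, SE). Tubb2b had 19.2 and 12.2 with CPEB3 IgG against 48.0 and 32.0 with control IgG (−1.36 ± 0.33, SE). Its second probe gave −1.24 and was not called (adjusted p = 0.0547). In Tubb4b and Tubb2b replicate 1 was the brighter array of each antibody. Tubb1, the beta tubulin of platelets, was dim, with 0.0706 and 0.0485 with CPEB3 IgG against 0.253 and 0.248 with control IgG (−2.10 ± 0.23, SE). Tubb6 was not called (−0.72 ± 1.22, SE), at 1.03 and 0.132 with CPEB3 IgG against 1.22 and 0.303 with control IgG, and there the replicates differed by more than the antibodies. The call of Tubb3 was lost without CPEB3 IgG replicate 2 (−1.10). Those of Tubb4b and Tubb2b were lost without CPEB3 IgG replicate 1 (−1.53 and −1.69) or 2 (−1.12 and −1.03) and without control IgG replicate 1 (−1.06 and −1.07).

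**Figure D2:**
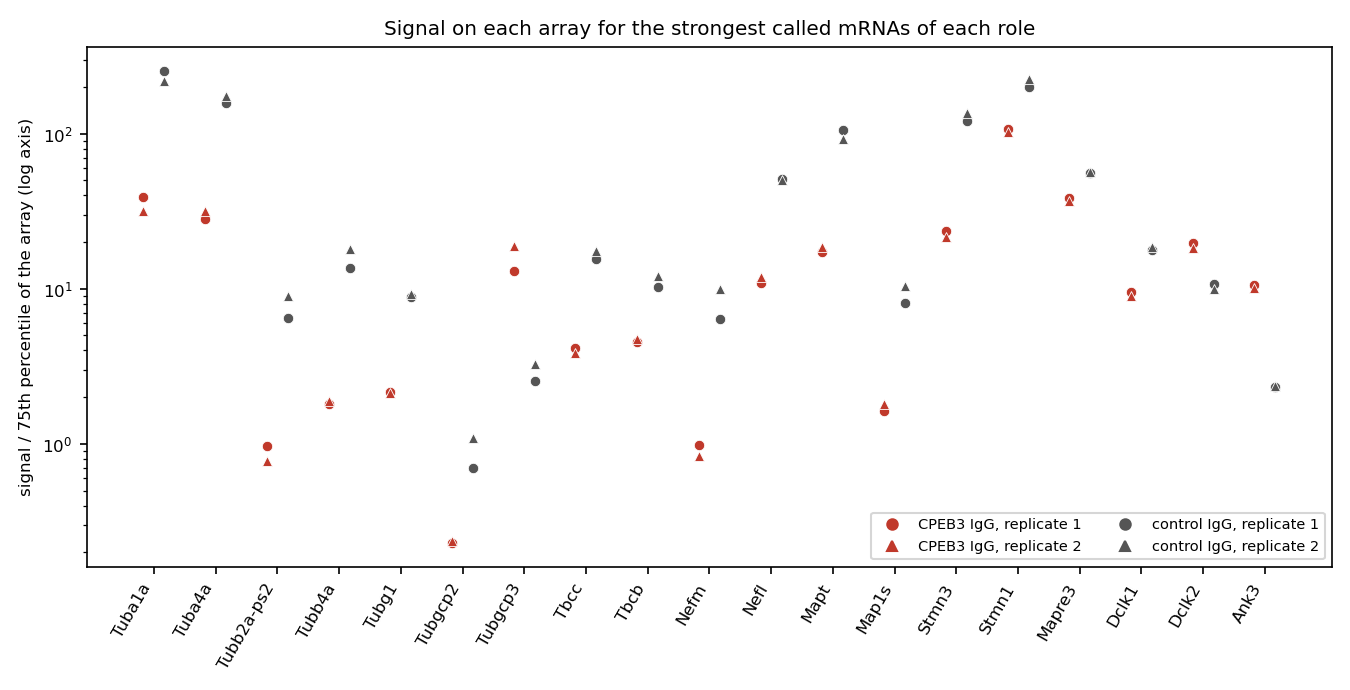
Signal on each array, as a multiple of the 75th percentile of that array (log axis), for up to 2 genes called lower and 1 called higher in each class; circles are replicate 1 and triangles replicate 2, with CPEB3 IgG left of control IgG for each gene. Only called genes are drawn, so the lack of overlap between the antibodies in them follows largely from this choice. Over all genes tested, both CPEB3 IgG arrays lay below both control arrays in 41.3% and above them in 31.6%. Tuba1a has 39.3 and 31.8 with CPEB3 IgG against 254.8 and 219.7 with control IgG, and Ank3 has 10.52 and 10.15 against 2.341 and 2.354. Signals of different genes come from different probes and are not comparable with each other.

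The gamma tubulins and the proteins of their ring complex, which nucleates new microtubules, moved in both directions, with 4 of 7 lower and 1 higher. Tubgcp3, a core subunit of the complex, had 13.1 and 18.9 with CPEB3 IgG against 2.55 and 3.27 with control IgG, a 5.45-fold rise (95% interval 3.36 to 8.84, adjusted p = 0.00545). It had the largest positive difference of the 55 genes. Tubgcp2, the other core subunit of the small complex, moved the other way, at 0.229 and 0.236 with CPEB3 IgG against 0.694 and 1.09 with control IgG (−1.91 ± 0.27, SE). Gamma tubulin itself fell, Tubg1 with 2.17 and 2.14 with CPEB3 IgG against 8.80 and 9.20 with control IgG (−2.06 ± 0.15, SE). The second gamma tubulin, Tubg2, had 11.7 and 11.9 with CPEB3 IgG against 18.4 and 17.5 with control IgG (−0.61 ± 0.15, SE). Tubgcp5, a subunit of the large ring, had 0.166 and 0.191 with CPEB3 IgG against 0.294 and 0.295 with control IgG (−0.73 ± 0.16, SE).

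The remaining ring subunits, Tubgcp4 (0.12 ± 0.17, SE) and Tubgcp6 (0.68 ± 0.19, SE, adjusted p = 0.0518), were not called. The Tubgcp6 probe at transcript position 6258 had 0.524 and 0.450 with CPEB3 IgG against 0.274 and 0.336 with control IgG. At its probe at position 2071 both CPEB3 IgG arrays were not well above background. The difference there was −1.49 ± 0.51 (SE) and was not called (adjusted p = 0.0893). No smallest fold is given for this probe. On CPEB3 IgG replicate 2 it was brighter than the weakest well-above-background probe of that array (log2 −4.46 against −4.87). That weakest probe is therefore not a detection limit for the Tubgcp6 probe. The calls of Tubg2 (−0.65 to −0.57) and Tubgcp5 (−0.83 to −0.62) were lost when any 1 of the 4 arrays was left out. That of Tubgcp2 did not survive leaving out CPEB3 IgG replicate 1 (−1.89) or 2 (−1.93), and with spike-in scaling Tubg2 lay at 0.044.

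Of the 5 cofactors that fold tubulin and assemble its dimer, 3 were lower and 0 higher. Tbcc, which triggers GTP hydrolysis to release the finished dimer, had 4.18 and 3.85 with CPEB3 IgG against 15.6 and 17.6 with control IgG (−2.05 ± 0.16, SE). Tbcb, which handles alpha tubulin, had 4.53 and 4.74 with CPEB3 IgG against 10.3 and 12 with control IgG (−1.27 ± 0.16, SE). Tbcd, which handles beta tubulin, had 2.30 and 1.99 with CPEB3 IgG against 3.81 and 3.87 with control IgG (−0.84 ± 0.16, SE). Its other probes gave −0.88, called lower, and −0.13, not called (adjusted p = 0.736). At their brightest probes the 3 cofactors were below control on both arrays. Tbca, which binds beta tubulin, had 18.6 and 19.0 with CPEB3 IgG against 14.2 and 13.5 with control IgG, and its difference of 0.44 ± 0.15 (SE) did not pass (adjusted p = 0.0768). Tbce, a partner of Tbcb, was not called (−0.45 ± 0.31, SE). The call of Tbcb was lost without CPEB3 IgG replicate 1 (−1.23), and that of Tbcd when any 1 of the 4 arrays was left out (−0.94 to −0.74).

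Every tested neurofilament gene was lower, 4 of 4, with all 6 of their probes called. Nefm, the medium subunit, had 0.989 and 0.840 with CPEB3 IgG against 6.35 and 9.92 with control IgG, an 8.71-fold fall (95% interval 5.23 to 14.5, adjusted p = 0.00412). Nefl, the light subunit on which the filament is built, had 10.9 and 11.9 with CPEB3 IgG against 51.4 and 50.2 with control IgG (−2.16 ± 0.15, SE). Nefh, the heavy subunit, had 4.11 and 3.68 with CPEB3 IgG against 8.45 and 9.004 with control IgG (−1.17 ± 0.16, SE), and −2.02 at a probe 638 nt nearer the 5′ end. Ina, alpha-internexin, had 22.5 and 22.3 with CPEB3 IgG against 54.4 and 52.4 with control IgG (−1.25 ± 0.15, SE), and its other probe gave −1.46. In all 4 genes the 2 control arrays were the high ones. The call of Nefh was lost without CPEB3 IgG replicate 2 (−1.09).

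The classical microtubule-associated proteins divided, with 4 of 9 lower, 0 higher and 5 not called. Mapt, which encodes tau, had 17.4 and 18.7 with CPEB3 IgG against 104.9 and 91.9 with control IgG, a 5.45-fold fall (95% interval 4.02 to 7.38, adjusted p = 0.00386). The neighbouring probe at transcript position 1406 gave −2.41. At position 5217 the tau signals were 13.0 and 12.2 with CPEB3 IgG against 8.44 and 21.9 with control IgG (−0.11 ± 0.49, SE). There the control arrays lay on either side of the CPEB3 IgG arrays, so the fall of tau rests on the 2 probes nearer the 5′ end.

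Map1s, the small relative of MAP1A and MAP1B, had 1.63 and 1.82 with CPEB3 IgG against 8.04 and 10.4 with control IgG (−2.41 ± 0.20, SE). Map1a had 4.03 and 4.27 with CPEB3 IgG against 11.5 and 8.21 with control IgG (−1.23 ± 0.22, SE), and its probe at position 11718 gave −0.53 (adjusted p = 0.0799). Map6, which makes microtubules resist cold, had 9.63 and 8.70 with CPEB3 IgG against 16.9 and 16.3 with control IgG (−0.86 ± 0.15, SE), and its probe on another transcript, at position 4749, gave −0.23 (adjusted p = 0.312). The 3 genes were low on both CPEB3 IgG arrays. The call of Map1a was lost on leaving out CPEB3 IgG replicate 1 (−1.19) or 2 (−1.27), and that of Map6 when any 1 of the 4 arrays was left out (−0.93 to −0.78).

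Map2, the dendritic member of the family, was on the other side of 0. Its brightest probe had 15.4 and 21.4 with CPEB3 IgG against 12.8 and 9.15 with control IgG (0.74 ± 0.27, SE, adjusted p = 0.0977). Its probe 240 nt nearer the 3′ end had 14.9 and 14.1 with CPEB3 IgG against 8.90 and 6.93 with control IgG and was called higher (0.88 ± 0.20, SE, adjusted p = 0.0326). The other Map2 probe, on another transcript, gave −0.52 (adjusted p = 0.0908). Map7 (0.77 ± 0.24, SE), Map1b (0.33 ± 0.22, SE), Map4 (0.27 ± 0.19, SE) and Map9 (−0.03 ± 0.26, SE) were not called, and Map9 turned positive with median (0.26) and spike-in scaling (0.63). The second probes of Map7 (−0.47) and Map1b (−0.39), nearer the 5′ end, were not called either.

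Among the stathmins, which bind free tubulin and promote disassembly, 3 of 4 were lower. Stmn3 had 23.7 and 21.6 with CPEB3 IgG against 120.3 and 136.5 with control IgG, a 5.67-fold fall (95% interval 4.18 to 7.69, adjusted p = 0.00386). Stmn1 had 107.8 and 102.6 with CPEB3 IgG against 199.5 and 224.3 with control IgG (−1.01 ± 0.16, SE), and −1.73 at a probe 340 nt nearer the 5′ end. Stmn2, a stathmin of axons, had 35.9 and 36.3 with CPEB3 IgG against 60.5 and 61.9 with control IgG (−0.76 ± 0.15, SE). Stmn4 had its high arrays with CPEB3 IgG, at 192.0 and 195.5 against 154.9 and 134.2 with control IgG, and did not pass (0.43 ± 0.16, SE, adjusted p = 0.103). The second Stmn4 probe gave 0.42 (adjusted p = 0.129). The Stmn1 probe shares a run of 53 bases with a probe named Gm11223, so the 2 may be read together. The call of Stmn1 was lost on leaving out CPEB3 IgG replicate 1 (−1.04) or 2 (−0.97), and that of Stmn2 when any 1 of the 4 arrays was left out (−0.78 to −0.75).

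The end-binding proteins track growing microtubule tips, and their genes differed little. Mapre3, the member enriched in brain, was lower, at 38.7 and 36.8 with CPEB3 IgG against 55.7 and 57.0 with control IgG (−0.58 ± 0.15, SE, adjusted p = 0.0404). This call was lost when any 1 of the 4 arrays was left out (−0.62 to −0.54), and with spike-in scaling the difference was 0.073. Mapre1 (0.26 ± 0.15, SE) and Mapre2 (0.39 ± 0.17, SE) were not called. Mapre2 had 52.3 and 44.4 with CPEB3 IgG against 35.2 and 38.2 with control IgG at transcript position 3940. At position 2299 its signals were 8.49 and 8.85 with CPEB3 IgG against 14.4 and 13.1 with control IgG, and this probe was called lower (−0.66 ± 0.16, SE, adjusted p = 0.0397).

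The doublecortin family joins microtubule-binding domains, in the kinase-like members, to a kinase domain, and it held 1 gene in each direction. Dclk1 had 9.47 and 8.95 with CPEB3 IgG against 17.8 and 18.5 with control IgG (−0.98 ± 0.15, SE). Its other probes gave −1.18, −1.96 and −0.69, of which the last was not called. Dclk2 had 19.8 and 18.3 with CPEB3 IgG against 10.8 and 9.95 with control IgG (0.88 ± 0.16, SE, adjusted p = 0.0163), and its second probe gave 0.31, not called. The 2 kinases thus had opposite high groups, with no overlap in either. Dclk3 (0.13 ± 0.15, SE) and Dcx (0.88 ± 0.40, SE), the doublecortin of migrating neurons, were not called, and Dcx had 2.53 and 1.52 with CPEB3 IgG against 1.42 and 0.804 with control IgG. The call of Dclk1 was lost without CPEB3 IgG replicate 1 (−1.02) or 2 (−0.94). That of Dclk2 was lost without CPEB3 IgG replicate 1 (0.82) or 2 (0.93), without control IgG replicate 2 (0.82), without scaling (0.84) and with the mean of its probes (0.59).

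Ank3, which encodes ankyrin-G, gave opposite calls at different probes. At transcript position 9365 it had 10.52 and 10.15 with CPEB3 IgG against 2.341 and 2.354 with control IgG, a 4.40-fold rise (95% interval 3.35 to 5.77, adjusted p = 0.00386). At position 6169 of the same transcript it had 0.935 and 0.875 with CPEB3 IgG against 1.44 and 1.18 with control IgG (−0.53 ± 0.18, SE, adjusted p = 0.0925). At position 1263 of another transcript it had 0.272 and 0.363 with CPEB3 IgG against 0.829 and 0.783 with control IgG and was called lower (−1.36 ± 0.21, SE, adjusted p = 0.0137). With the mean of its 3 probes the difference of Ank3 was 0.085 and not called. Ank2, ankyrin-B, was not called at its brightest probe (−0.28 ± 0.16, SE) and was lower at a dimmer one of another transcript (−1.30 ± 0.18, SE, adjusted p = 0.011). Ank1, the ankyrin of red cells, lay at −0.01 ± 0.29 (SE).

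The order seen within Ank3 and Mapt recurred in other members. For 16 of them at least 2 tested probes lay 100 nt or more apart on one accession, and in 15 the probe nearest the 3′ end had the more positive difference. The median step was 0.72 on the log2 scale, and the largest were those of Ank3 (2.66 over 3196 nt), Mapt (2.30 over 3811 nt) and Tubgcp6 (2.17 over 4187 nt). In Tubgcp6 the probe nearer the 5′ end was not well above background with CPEB3 IgG. Mapre1 ran the other way (−0.44 over 5610 nt). The same direction held for 2896 of 3694 transcripts across the array, or 78.4%, with a median of 0.59, so it is not particular to these mRNAs. Transcript ends were not analysed here, so the distance of a probe from the 3′ end is not given.

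**Figure D3:**
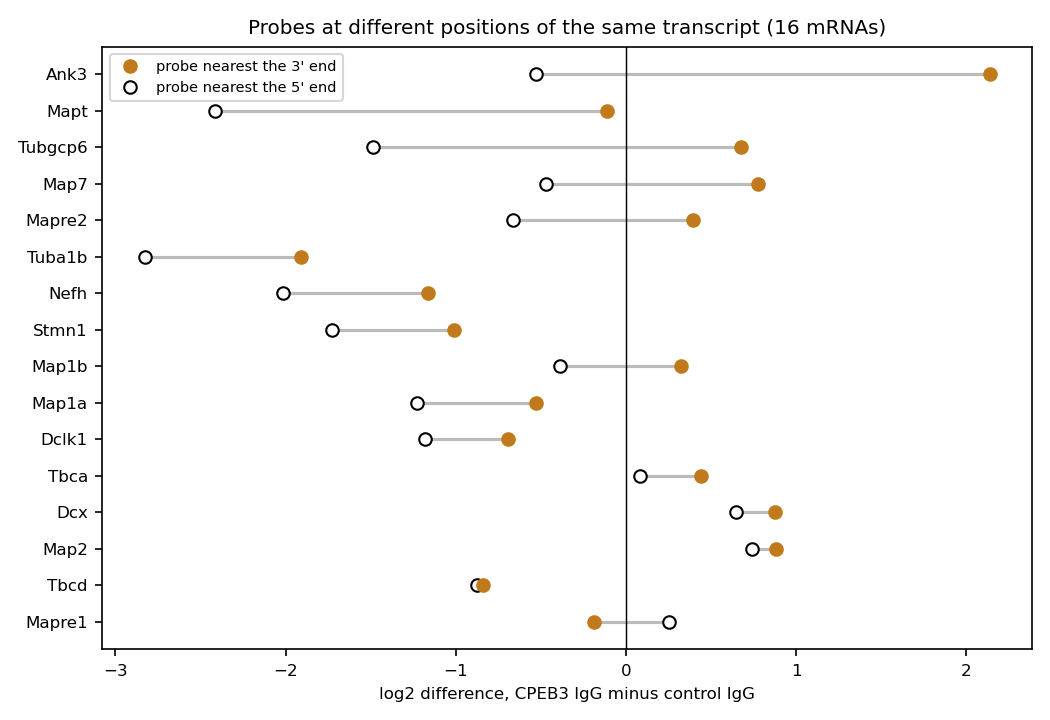
Log2 difference of CPEB3 IgG minus control IgG at the tested probe nearest the 3′ end (filled) and at that nearest the 5′ end (open) for the 16 members with probes at least 100 nt apart on one accession. The filled point lies to the right for 15 genes, by up to 2.66 for Ank3, and to the left for Mapre1; the open point of Tubgcp6 is not well above background on the CPEB3 IgG arrays.

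Base composition of the probes was compared as a description. Member probes called lower had a median of 28.3% T (n = 45) and those called higher 35.0% (n = 4), against 25.0% and 33.3% among all probes with a RefSeq accession called lower and higher. Over the 55 members the correlation of the difference with the share of T was r = 0.23 (Spearman 0.21), and that with the share of G and C was r = −0.47 (Spearman −0.46). Over 17221 genes with a RefSeq accession the same values were 0.31 (Spearman 0.31) and −0.31 (Spearman −0.32). These correlations run across genes measured on the same arrays, which are not independent replicates, and base composition also affects hybridisation. TTTTAT or TTTTAAT, searched on the transcript strand and counted once where both occur, was found in 3 of 88 tested member probes, or 3.41%, and in 5.33% of 22999 probes with a RefSeq accession. The 3 were those of Tbca, Mapre3 and Map1b shown above, and none of these probes was called in the fit over probes. A probe is a short piece of its transcript, so this says only that these letters are not in the other windows.

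Other genes of the microtubule, intermediate filament and spectrin systems moved in both directions. Of 111 tested genes in the related lists, 29 were higher and 35 lower, with a median of −0.14. Over all genes tested 19.2% were higher and 20.2% lower, and over those matched to RefSeq 25.6% and 19.9%. Calls in both directions are therefore not particular to these lists. Enzymes that modify tubulin had 5 higher and 7 lower of 21, with Vash2, part of a tubulin detyrosinase, at 1.78 ± 0.22 (SE, well above background on 1 of 2 control arrays) and its partner Svbp at 1.102 ± 0.177 (SE), and with the deacetylase Sirt2 at −2.07 ± 0.15 (SE) and the deglutamylase Agbl4 at −1.81 ± 0.27 (SE). Severing, tip and nucleation factors had 6 higher and 14 lower of 30. The polymerase Ckap5 (1.98 ± 0.16, SE) and the minus-end protein Camsap2 (1.66 ± 0.17, SE) were among the higher ones, and the augmin subunit Haus5 (−1.54 ± 0.15, SE) among the lower ones. The augmin subunit Haus2 was not well above background on either CPEB3 IgG array and was called lower there (−1.83 ± 0.27, SE, adjusted p = 0.0103). Kinases of microtubule-associated proteins had 5 higher and 2 lower of 13, with the tau kinases Ttbk2 (2.00 ± 0.21, SE) and Mark3 (1.83 ± 0.19, SE) higher and Gsk3b (−0.89 ± 0.16, SE) and Mark4 (−0.64 ± 0.17, SE) lower.

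Other microtubule- and tubulin-related proteins had 7 higher and 6 lower of 26, led by the giant linker Macf1 (2.61 ± 0.19, SE) and epsilon tubulin, Tube1 (2.13 ± 0.17, SE), and by Arl2, a GTPase that works with the tubulin cofactors (−2.64 ± 0.19, SE), and the spindle protein Tpx2 (−2.53 ± 0.41, SE). Intermediate filaments other than neurofilaments had 1 higher and 4 lower of 8. The nuclear lamins stood at either end, with Lmnb1 at 2.23 ± 0.21 (SE) and Lmna at −2.64 ± 0.15 (SE), and the peripheral neuron filament Prph was lower (−1.47 ± 0.19, SE). Spectrins and ankyrin partners had 5 higher and 2 lower of 13, among them the adducins Add3 (1.53 ± 0.18, SE) and Add2 (−1.57 ± 0.19, SE) and the spectrin Sptb (1.22 ± 0.21, SE).

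**Figure D4:**
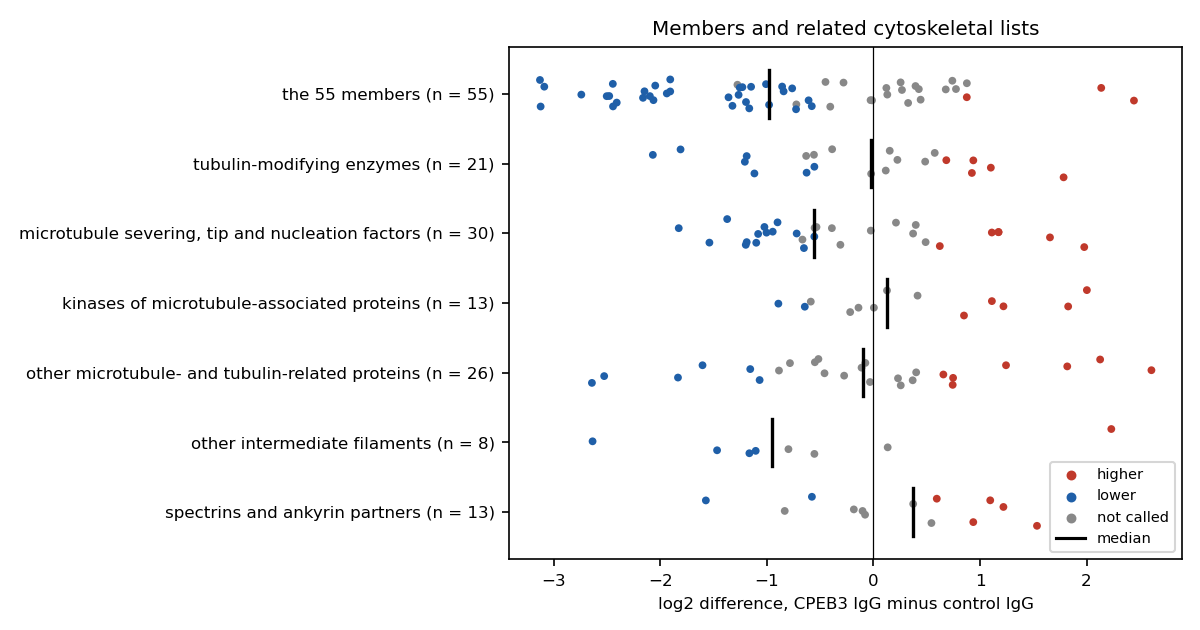
Log2 difference of CPEB3 IgG minus control IgG for each tested gene of the members and of 6 related lists; points are genes, coloured by call, spread vertically only for legibility, and black bars are medians. The members have a median of −0.98, with 33 of 55 lower, while the related lists together have a median of −0.14, with 35 of 111 lower and 29 higher.

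How arrays are scaled set how many members were called lower. With spike-in scaling, which moved the median of all genes by 0.65, 11 members were lower and 4 higher, and 33 of 55 differences stayed below 0. The share of all genes called with that scaling is not given here, so these counts have no background beside them. Median, spike-in and no scaling differ from the main scaling only by a shift common to all genes of an array. The members' median relative to that of all genes is therefore −0.84 in each of them by construction, which says nothing about stability. It was −1.01 with quantile scaling, −1.03 with cyclic loess scaling and −0.89 with the other background correction. All 9 beta tubulins and all 4 neurofilament genes had differences below 0 with each of the 6 alternatives of background and scaling, and 7 of 7 alpha tubulins with each but spike-in scaling, where Tuba3b was at 0.25. With spike-in scaling 3 alpha tubulins, 3 beta tubulins, 2 neurofilament genes, Mapt, Map1s and Stmn3 were still called lower. Tubgcp5 kept its call in 4 of 15 settings and lost it with each of the other backgrounds and scalings (−0.76 to −0.074) and without a filter on dim probes. Median scaling also ended the calls of Tubb4b, Tubb2b, Tubg2, Tbcd, Map6, Stmn2 and Mapre3, and quantile scaling those of Stmn2 and Mapre3. Those of Tubg2, Tbcd, Map6, Stmn1, Stmn2, Mapre3 and Dclk1 were lost without scaling, and those of Tubg2, Tubb2b and Mapre3 without the filter. The added spike-in RNA averaged log2 13.11 and 13.43 on the CPEB3 IgG arrays, against 13.97 and 13.94 on the control arrays.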

How the data were processed

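Labelled RNA (0.2 µg, Cy3) was hybridised to 4 one-colour Agilent mouse arrays of 62976 spots, 2 per antibody. Per the file headers, the deposited intensities were made with Feature Extraction 10.5.1.1, which subtracts background and detrends each array (the processed signal) beside the mean and local background intensities, and probe coordinates are those of mm9. Control spots and outlier-flagged spots were left out here, spots of one probe were averaged, log2 of the processed signal was taken and the 75th percentile of the array subtracted (507, 353, 443 and 425 for CPEB3 IgG 1 and 2 and control IgG 1 and 2). Probes well above background on at least 2 arrays were kept, and the brightest probe represented a gene. No member spot was saturated or outlier-flagged. limma 3.58.1 in R 4.3.3 (lmFit, eBayes) was run over all 27687 genes and again over all 40616 probes with Benjamini-Hochberg adjustment, and a call needs an adjusted p under 0.05. Every adjusted p quoted is from limma. Mapre3 was called over genes and missed the threshold over probes (adjusted p = 0.0501).

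The members and gene lists were chosen with earlier results of these data known. Values on each array are given, within a class, for up to 4 called genes in each direction, the brightest gene and genes whose probes disagree, with some further members added for completeness, and related lists name up to 2 called genes in each direction. Some genes are not reported here by name. RefSeq symbols were matched to 27509 probes. Sequences were to be placed by translation into RefSeq proteins, which could not be done here, so 30 bases of each probe are shown, chosen after their values were seen. The number of arrays limits the precision, and normalised signals are not levels per transcript length. Other backgrounds, scalings, filters, probe rules, thresholds, a replicate block and leaving out each array were tried. The fit was tested on simulated data.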

Additional observations from a re-analysis of the deposited data

How the results depend on the processing

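Across the alternatives the count of members called lower (33) was 11 with spike-in scaling, 20 at an adjusted p of 0.01 and 17 to 28 when each array was left out in turn. The count of members called higher (3) was 5 with normexp background correction, 8 with median scaling, 5 with probes well above background on all 4 arrays, 1 with the mean of a gene's probes, 6 with a variance prior that follows intensity, and 2 to 3 on leaving out each array. Member probes called higher (4) numbered 8 with median scaling, 2 without scaling, 2 without a filter on dim probes, 7 with that prior, 2 at an adjusted p of 0.01, 2 with a 2-fold minimum and 2 to 3 on leaving out each array. Member probes called lower (45) numbered 14 with spike-in scaling, 20 at 0.01 and 21 to 38 on leaving out each array. Related genes called higher (29) numbered 13 without scaling, 19 with the mean of probes, 12 at 0.01, 19 with a 2-fold minimum and 9 to 22 on leaving out each array, and those called lower (35) numbered 3, 18 and 10 with spike-in scaling, without scaling and at 0.01, and 13 to 27 on leaving out each array. Differences near 0 changed sign: Ank1 was 0.19 with quantile, 0.28 with median, 0.14 with cyclic loess and 0.64 with spike-in scaling; Dclk3 was −0.033 with quantile scaling; Ank2 was 0.0095 and Map9 0.26 with median scaling; spike-in scaling gave Ank2 0.37, Tbce 0.20, Mapre3 0.073, Tubg2 0.044, Map9 0.63 and Tuba3b 0.25; the mean of probes gave Tubgcp4 −0.067, Tubgcp6 −0.40, Mapre2 −0.13 and Map1b −0.032. On leaving out each array, Ank1 ranged from −0.34 to 0.31 (0.17 and 0.31 where positive), Map9 from −0.32 to 0.27 (0.080 and 0.27 where positive), Tubgcp4 from −0.0019 to 0.24 and Tubb6 from −2.21 to 0.76 (0.28 and 0.76 where positive). The cause was not tested. Shares of all genes called are given for the main setting only, so the counts in the other settings have no background beside them. Of the 36 called members, 11 were called in all 15 settings (Nefm, Nefl, Map1s, Mapt, Tubb2a-ps2, Tubb4a, Tubb5, Tuba4a, Tuba1a, Stmn3 and Tubgcp3), 22 lost the call with spike-in scaling and 18 on leaving out at least 1 array. Replicate numbers are shared by the antibodies, and the replicate differences of CPEB3 IgG and control IgG correlated at 0.391 over all genes and 0.728 over members. With only 2 such pairs and no label that explains the numbers they were not taken as pairs, and with the replicate block 5 members were higher and 34 lower.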

Other observations

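Some members differed more between replicates than their neighbours did. Tubb6 was 7.85 times as high on CPEB3 IgG replicate 1 as on replicate 2 and 4.03 times as high on control IgG replicate 1 as on replicate 2. The same ratio was 1.55 and 2.31 for Tuba1c, 1.67 and 1.76 for Dcx, 1.68 and 1.65 for Tuba8 and 1.58 and 1.5 for Tubb2b, with CPEB3 IgG first. In each of these genes replicate 1 was the higher array of both antibodies. The probe on chromosome 12 that carries the name Tuba1a shares a run of 39 bases with a probe that has no gene name.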
